A study of Mus musculus with 24 samples.

Results

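The Cyp4 genes encode cytochrome P450 enzymes that oxidise fatty acids at the far (omega) end of the chain. The genes described here were the 8 named members Cyp4a10, Cyp4a12a, Cyp4a12b, Cyp4a14, Cyp4a31, Cyp4b1, Cyp4f14 and Cyp4f15, taken as every array probe whose accession RefSeq assigns to them. They came to 12 probes, and all 8 genes were among the 27985 tested. Whole kidneys of young, age-matched male mice had been labelled with Cy3 and hybridized to single-colour Agilent arrays, 1 kidney to an array. The 6 control kidneys were mgb+/+. The 18 mgb-/- kidneys came from megabladder mutants, whose defective bladder leads to congenital hydronephrosis, and were labelled as 7 mild, 5 moderate and 6 severe. The grades were ultrasound classes of remaining parenchyma, so a severe kidney has lost the most tissue. No strain, drug treatment or second allele was named in the labels. Nor do the labels tie kidneys to animals, so a p-value here measures the spread between kidneys, some of which may come from 1 mouse.

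In the kidney Cyp4a enzymes sit mainly in the proximal tubule, where some of them turn arachidonic acid into 20-HETE, a lipid that acts on vascular tone and on sodium transport. Cyp4a12a and Cyp4a12b are the main 20-HETE synthases of the mouse and are typical male-biased, androgen-dependent transcripts. Cyp4a10 and Cyp4a14 are induced through the fatty acid receptor PPARα, and Cyp4a14 is usually higher in females. Cyp4b1, which also oxidises xenobiotics, is androgen-dependent in mouse kidney, while Cyp4f enzymes act on leukotrienes and long fatty acids.

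All values are log2 signals relative to the 75th percentile of the same array, so 0 is that percentile. Levels were compared only within a probe, since different probes do not bind alike. Each of 3 slides carried 8 arrays, those of 2 control kidneys among them, and between 55.6% and 70.8% of probes stood well above background on an array. Kidney markers were present throughout, with a summed signal between 8.85 and 9.61 over 8 genes in every kidney. Over all mgb-/- kidneys 0 of the 8 was called by limma, with 2 of 8 at an unadjusted p under 0.05 (29% of all genes). Both also had an adjusted p under 0.05 and fell short of 2-fold. Against control, 1 of the 8 was called higher in mild (1.15% of all genes) and 1 in severe kidneys (2.98% of all genes), and none in moderate ones. A gene was called when limma's adjusted p, corrected by Benjamini-Hochberg over all genes, was under 0.05 and the change was at least 2-fold. In bulk tissue, fewer cells of a type and less RNA per cell cannot be told apart. The summed adrenal cortex markers lay at 7.96 in mild replicate 4 and 7.88 in moderate replicate 1, against -2.36 to -1.14 in controls. Mild replicates 2, 5, 6 and 7 and moderate replicate 3 lay between 0.31 and 2.42, and mild replicate 3 and severe replicates 1 and 4 between -1.12 and -0.12, all above every control. In severe replicate 5 the proximal tubule markers summed to 9.09, against 10.36 to 10.96 in the other severe kidneys. Values without severe replicate 5, or without mild replicate 4 and moderate replicate 1, are given where these kidneys matter to a result.

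Of the 8 Cyp4 genes, 4 were called in mgb-/- against control kidneys, against a background of 3.09% of all genes. Cyp4a14 was higher, in the direction taken by 1.83% of genes, and Cyp4a12a, Cyp4a12b and Cyp4b1 were lower, in the direction taken by 1.26%. The median log2 change over the 8 was -0.32, and over all genes 0.01. Cyp4a10, Cyp4a31, Cyp4f14 and Cyp4f15 were not called.

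Cyp4a12a fell by 3.51 on the log2 scale (SE 0.85, limma adjusted p = 0.0107, 18 against 6 kidneys), a difference of 11.4-fold. Control kidneys read 2.36, 1.66, 2.78, 2.03, 1.66 and 2.57. Mild kidneys lay between -3.22 and 0.29 with a median of -2.63, and severe kidneys between -2.83 and 3.28 with a median of -2.24. No mild kidney reached the lowest control. Moderate kidneys read -0.79, 3.20, -3.00, 1.11 and 0.63, the widest scatter of any grade beside the severe kidneys (SD 2.30, n = 5, and SD 2.34, n = 6). In all, 16 of 18 mgb-/- kidneys lay below every control and 2 lay above every control, with none in between.

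Cyp4a12b, the neighbouring copy of the gene, fell by 3.48 (SE 0.85, limma adjusted p = 0.0114). Its control mean was 2.83 ± 0.52 (SD, n = 6) and its mgb-/- mean was -0.65 ± 2.13 (SD, n = 18). As for Cyp4a12a, 16 kidneys lay below and 2 above every control. Both genes are close to identical in sequence, the probe sequences were not used here, and signal of one may be read by the probe of the other, so their calls may not be independent of each other.

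The 2 kidneys above the controls were the same for both genes. Moderate replicate 2 read 3.20 for Cyp4a12a and 3.97 for Cyp4a12b, and severe replicate 6 read 3.28 and 3.95. They also carried control-like levels of Cyp4b1, at 7.21 and 7.19. For Cyp4a14 they read 3.80 and 3.95, where the highest control was 3.87. Their urothelial marker sums, at 5.83 and 6.39, were above the highest control sum of 4.85.

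Cyp4a14 rose 6.93-fold, with a log2 change of 2.79 (SE 0.44, limma adjusted p = 7.56e-04). Control kidneys read 3.54, 3.46, 2.85, 3.09, 3.87 and 2.64. Mild kidneys read from 5.33 to 6.93 with a median of 6.58, and moderate kidneys read 7.10, 3.80, 6.24, 6.95 and 5.68. Severe kidneys read 6.70, 6.45, 6.07, 4.29 and 3.95, and the spot of severe replicate 4 was left out as an outlier spot; read in spite of that, it gave 6.12. Thus 16 of 17 mgb-/- kidneys lay above every control, and the other one, moderate replicate 2, lay within the control range.

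**Figure D1:**
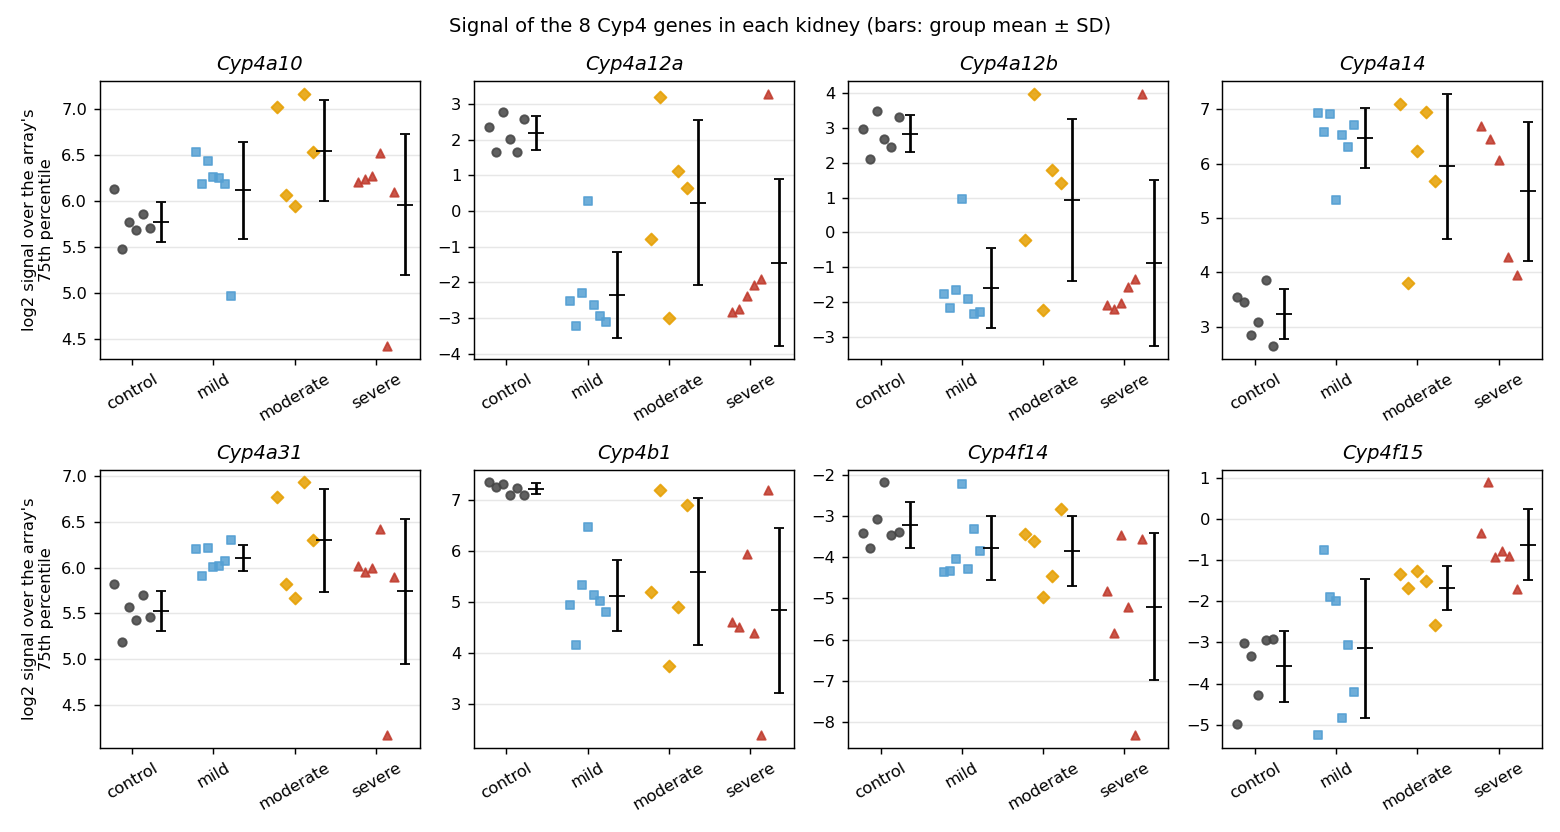
Log2 signal over the array's 75th percentile (vertical axes) of each Cyp4 gene in every control, mild, moderate and severe kidney (1 point each), with the group mean and SD as a bar beside the points. For Cyp4a12a and Cyp4a12b, moderate replicate 2 and severe replicate 6 stand above the controls and the other 16 mgb-/- kidneys below them, while Cyp4a14 is above every control in 16 of 17.

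Cyp4b1 had the tightest controls of the 8 genes and no mgb-/- kidney above the highest of them. Control kidneys read 7.35, 7.27, 7.32, 7.10, 7.24 and 7.11, a mean of 7.23 ± 0.11 (SD, n = 6). The mgb-/- kidneys ranged from 2.39 to 7.21 with a median of 4.98, and 16 of 18 lay below every control. The fall was 2.07 on the log2 scale (SE 0.49, limma adjusted p = 0.00968), or 4.20-fold. The lowest value, 2.39, belonged to severe replicate 5, the kidney with few proximal tubule transcripts, and without that kidney the change was -1.91 and was still called.

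RefSeq promoter windows were given for 3 of the 8 genes, Cyp4b1, Cyp4f14 and Cyp4f15, and none for the Cyp4a genes. They are shown because these 3 genes took different directions in severe kidneys, as described further on. Each line gives the 250 bases before the start of transcription on the strand of the gene (RefSeq, GRCm38.p6), with matches to the motifs searched in capitals. The Cyp4b1 stretch is chr4:115647722-115647971 on the minus strand, the first of 4 Cyp4f14 stretches is chr17:32917357-32917606 on the minus strand, and the Cyp4f15 stretch is chr17:32685409-32685658 on the plus strand.
Cyp4b1: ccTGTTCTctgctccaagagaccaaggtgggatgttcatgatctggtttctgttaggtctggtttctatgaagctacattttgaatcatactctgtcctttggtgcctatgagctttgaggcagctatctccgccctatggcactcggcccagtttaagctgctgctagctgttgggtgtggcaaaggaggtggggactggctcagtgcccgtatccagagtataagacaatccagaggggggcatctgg
Cyp4f14: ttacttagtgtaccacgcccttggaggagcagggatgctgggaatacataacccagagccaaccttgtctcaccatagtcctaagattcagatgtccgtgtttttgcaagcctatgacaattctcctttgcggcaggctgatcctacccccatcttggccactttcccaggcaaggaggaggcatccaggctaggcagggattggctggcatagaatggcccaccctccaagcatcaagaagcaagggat
Cyp4f15: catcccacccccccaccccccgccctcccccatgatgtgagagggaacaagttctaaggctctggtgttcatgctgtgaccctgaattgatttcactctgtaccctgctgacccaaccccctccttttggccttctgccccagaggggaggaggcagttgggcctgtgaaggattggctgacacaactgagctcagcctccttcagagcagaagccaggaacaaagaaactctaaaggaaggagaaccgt
The motifs, searched on both strands of the full 300-base windows, were TATAAA (the TATA box), AGGTCA (a nuclear receptor arm), TGTTCT (a steroid receptor arm), a direct repeat of AGGTCA with 1 base between, and a palindrome of TGTTCT with 3 bases between. The direct repeat and the palindrome contain the shorter motifs. Among the 3 genes only TGTTCT was found, once, in Cyp4b1 at position -248 from the start. Over all 32851 promoter windows TATAAA occurred in 13.6%, AGGTCA in 16.3%, TGTTCT in 19.0%, the direct repeat in 0.0396% and the palindrome in 0.00913%.

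Cyp4a10 and Cyp4a31, which lie beside Cyp4a14 on chromosome 4 and share long stretches of sequence with each other, were not called in any comparison. Cyp4a10 had a log2 change of 0.41 (SE 0.26, limma adjusted p = 0.310), with 13 of 18 mgb-/- kidneys above every control and 2 below. Cyp4a31 had a log2 change of 0.51 (SE 0.23, limma adjusted p = 0.144), with 15 of 18 above every control and 1 below. The low kidney shared by both was severe replicate 5, at 4.42 and 4.18, where the control means were 5.77 ± 0.22 and 5.53 ± 0.22 (SD, n = 6). Without that kidney, Cyp4a31 changed by 0.62 (SE 0.14, limma adjusted p = 0.00772), past the p threshold but short of 2-fold, and Cyp4a10 by 0.51 (SE 0.20, limma adjusted p = 0.0781). In severe kidneys alone, the Cyp4a31 change was 0.22 with it and 0.53 without it (limma adjusted p = 0.0637), and that of Cyp4a10 was 0.19 and 0.49 (limma adjusted p = 0.178).
Each of these genes had 3 probes, and over all mgb-/- kidneys all 3 gave a positive difference from the control mean. The other Cyp4a10 probes gave 0.46 and 0.63, and the other Cyp4a31 probes gave 0.41 and 0.23. In severe kidneys alone the other Cyp4a10 probes gave 0.16 and 0.06, and the other Cyp4a31 probes gave -0.01 and -0.35. The sign of the severe Cyp4a31 change thus depended on the probe. The Cyp4a10 value of mild replicate 7 depended on the probe, at 4.96 on the one used and 6.28 on the second.

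Cyp4f14 and Cyp4f15 read low in control kidneys, with means of -3.22 and -3.58. In severe kidneys the means were -5.20 for Cyp4f14 and -0.62 for Cyp4f15, so Cyp4f14 alone came near the floor of the arrays there. Cyp4f14, known for the inactivation of leukotriene B4, stood well above background on 21 of 24 arrays and on 3 of 6 severe ones. Its log2 change in mgb-/- kidneys was -1.05 (SE 0.54, limma adjusted p = 0.206). Cyp4f15 stood well above background on 23 of 24 arrays and had a log2 change of 1.69 (SE 0.66, limma adjusted p = 0.0888), with 14 of 18 kidneys above every control. Neither was called over all mgb-/- kidneys, although Cyp4f15 was called without mild replicate 1 or 5 (adjusted p = 0.0383 and 0.0469).

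Within each slide, with 2 control kidneys on it, the mgb-/- minus control difference kept its sign for all 8 genes. The share of all genes that did so was not computed. Cyp4a14 differed by 1.83 to 3.28, Cyp4a12a by -4.32 to -2.71, Cyp4b1 by -2.16 to -1.96 and Cyp4f15 by 1.04 to 2.41 across the 3 slides.

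The grades were then compared with control kidneys one at a time. These comparisons share the 6 control kidneys. In mild kidneys, 4 of 8 genes were called (background 2.21%), 1 higher (background 1.15%) and 3 lower (background 1.06%). They were the 4 genes called over all mgb-/- kidneys. Cyp4a12a changed by -4.52 (SE 0.91, limma adjusted p = 0.00664) and Cyp4a12b by -4.42 (SE 0.92, limma adjusted p = 0.00789). Cyp4a14 changed by 3.23 (SE 0.50, limma adjusted p = 0.00115), so this grade, with the most parenchyma left, held the largest estimates for all 3 genes. Cyp4b1 changed by -2.11 (SE 0.59, limma adjusted p = 0.0367), close to the threshold. The call was lost without any one of the 6 controls or of mild replicates 1, 2, 3, 5, 6 and 7, with adjusted p-values of up to 0.0842, and with slide as a block (adjusted p = 0.0537).

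In moderate kidneys, 1 of 8 genes was called (background 0.729%), the higher Cyp4a14 (background 0.529%), and none was lower (background 0.2%). Its log2 change was 2.72 (SE 0.54, limma adjusted p = 0.0213). The call was lost without moderate replicate 1, 3 or 4 or control replicate 3 or 6, with adjusted p-values from 0.0524 to 0.0989. Without the kidneys rich in adrenal transcripts, the change was 2.43 and limma's adjusted p was 0.0851. Cyp4a12a changed by -1.95 (SE 0.99, limma adjusted p = 0.296). Without moderate replicate 3 that change was -1.14, and without moderate replicate 2 it was -2.69. With array quality weights, which count scattered arrays less, 5 of 8 genes were called, where the share of all genes called rose to 5.28%.

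In severe kidneys, 6 of 8 genes were called (background 4.71%), 2 higher (background 2.98%) and 4 lower (background 1.73%). Beside the 4 genes above, Cyp4f15 was higher and Cyp4f14 lower. Cyp4a12a changed by -3.62 (SE 0.94, limma adjusted p = 0.0158), Cyp4a14 by 2.25 (SE 0.54, limma adjusted p = 0.0111) and Cyp4b1 by -2.39 (SE 0.61, limma adjusted p = 0.0145). Of 14 proximal tubule markers, 13 also had a negative change in this grade, with a median of -0.52.

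The group means of Cyp4f15 stood in the order control, mild, moderate and severe. Control kidneys read -4.99, -3.01, -3.34, -4.29, -2.95 and -2.91. Mild kidneys ranged from -5.25 to -0.74 and overlapped them. Moderate kidneys read -1.34, -1.68, -1.25, -1.49 and -2.58, and all 5 lay above every control. Severe kidneys ranged from -1.69 to 0.90, and all 6 lay above every control. The severe change against control was 2.96 (SE 0.63, limma adjusted p = 0.00570), the moderate one 1.91 (SE 0.66, limma adjusted p = 0.129) and the mild one 0.44 (SE 0.60, limma adjusted p = 0.761). Severe kidneys exceeded mild ones by 2.52 (SE 0.60, limma adjusted p = 0.0620), which missed the threshold. It passed without mild replicate 2, 3 or 4 or severe replicate 6, with adjusted p-values from 0.00835 to 0.0484.
The urothelial markers moved with the same grades. Their summed signal ranged from 3.99 to 4.85 in control, 4.01 to 6.19 in mild, 4.66 to 6.24 in moderate and 6.39 to 8.05 in severe kidneys, and 7 of the 8 were called higher in severe kidneys. Their part in the Cyp4f15 result was not tested.

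Cyp4f14 fell in severe kidneys by 1.98 (SE 0.61, limma adjusted p = 0.0313). Severe kidneys read -4.81, -5.83, -3.47, -5.22, -8.31 and -3.55, and 4 of them lay below every control, where controls ran from -3.79 to -2.18. The lowest was again severe replicate 5, and without it the change was -1.36 (limma adjusted p = 0.0626). The call was also lost without control replicate 3 or 4 or severe replicate 1 or 2, with adjusted p-values from 0.0505 to 0.0712. At this level the estimate depends on how background is removed, and with normexp correction the change was -0.42.

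**Figure D2:**
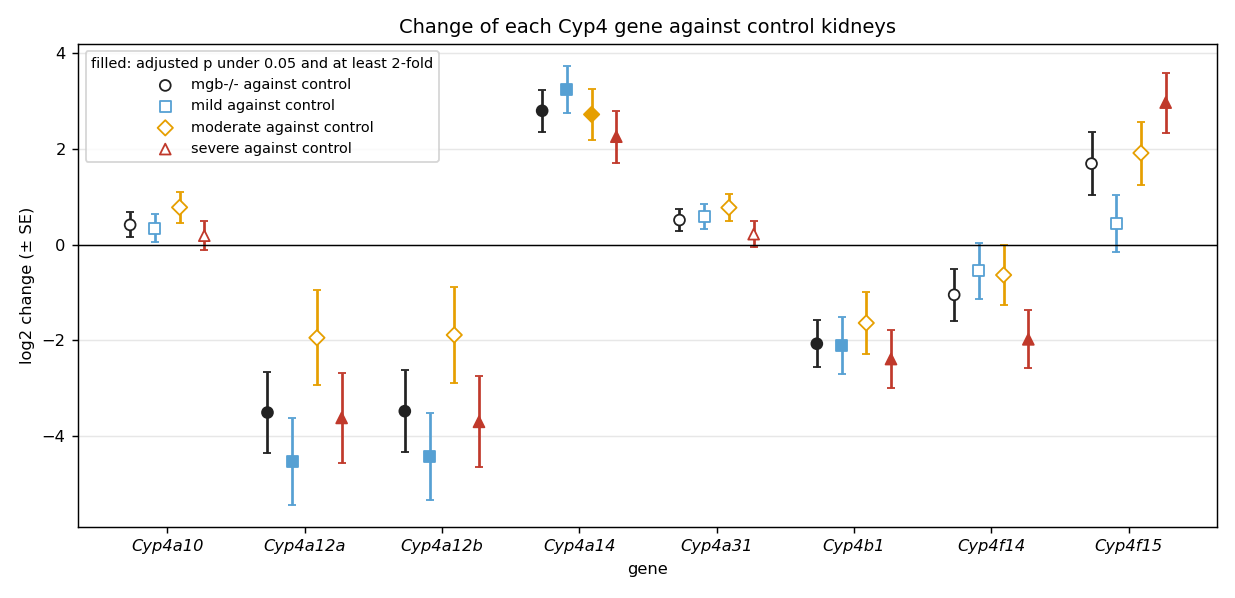
Log2 change of each Cyp4 gene against control kidneys (vertical axis), with SE bars, for all 18 mgb-/- kidneys and for each grade, filled where called. Cyp4a14 is called in every comparison, Cyp4a12a, Cyp4a12b and Cyp4b1 in all but the moderate one, and Cyp4f14 and Cyp4f15 in the severe one only.

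Directly between grades, no Cyp4 gene was called in limma's test. All-gene backgrounds were 0% for moderate against mild, 0.461% for severe against mild and 0.00715% for severe against moderate. At an unadjusted p under 0.05 there were 3, 2 and 1 of the 8 genes, against 6.68%, 11.1% and 10.4% of all genes. The largest of these estimates was the 2.58 (SE 0.96, limma adjusted p = 0.592) by which Cyp4a12a in moderate exceeded mild kidneys. The decline of the Cyp4a14 estimate from mild to severe kidneys was -0.98 (SE 0.52, limma adjusted p = 0.496). For Cyp4a12a the order of group means was control, moderate, severe and mild, and for Cyp4a14 mild, moderate, severe and control, and no neighbouring grades differed past the threshold in either. Control and moderate kidneys, neighbours in the Cyp4a12a order, did not either, whereas severe and control kidneys, neighbours in the Cyp4a14 order, did.

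Since mgb-/- kidneys scattered more than controls for several genes, the spread itself was tested with limma on the absolute deviations from the group mean. None of the 8 genes was called (background 0.025%), and 3 of 8 had an unadjusted p under 0.05 (9.17% of all genes), namely Cyp4a12a, Cyp4a12b and Cyp4b1. For Cyp4a12a the mean deviation was larger in mgb-/- kidneys by 1.36 (SE 0.47, limma adjusted p = 0.522).

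For 4 pairs of genes the correlation over mgb-/- kidneys was computed, with 100000 permutations, two-sided, and p-values adjusted over the 4 pairs. Cyp4a12a and Cyp4a12b moved together almost exactly (Pearson r = 0.998, Spearman rho = 0.96, n = 18), with an adjusted permutation p of 4e-05, the smallest these permutations can give, and r was 0.994 without the 2 kidneys farthest from the median. Cyp4a12a and Cyp4b1 also went together (r = 0.71, adjusted permutation p = 0.00118, rho = 0.63, adjusted permutation p = 0.0122, n = 18). Without moderate replicate 2 and severe replicate 6, r was 0.49 (permutation p = 0.0579, n = 16), smaller and short of the threshold.
Cyp4a12a and Cyp4a14 went in opposite directions over all kidneys (r = -0.67, adjusted permutation p = 0.00795, n = 17), though by rank less clearly (rho = -0.34, adjusted permutation p = 0.177). Without the same 2 kidneys r was -0.19 (permutation p = 0.521, n = 15). The linear relation of this pair rests on those 2 kidneys. Within slides 1, 2 and 3, r was -0.23, -0.73 and -0.95 (n = 6, 6 and 5). Slide 2 held moderate replicate 2 and slide 3 held severe replicate 6, so the stronger values include those kidneys. Cyp4a10 and Cyp4a14, both PPARα-inducible, had r = 0.44 (adjusted permutation p = 0.0682, n = 17) and rho = 0.52 (adjusted permutation p = 0.0444), and r was 0.50 without the 2 farthest kidneys, mild replicate 7 and severe replicate 5 (permutation p = 0.0452, n = 15). With a single kidney left out, r went down to 0.23 without severe replicate 5 (permutation p = 0.361) and up to 0.60 without mild replicate 7 (permutation p = 0.00991). Within slides 1, 2 and 3, Cyp4a12a and Cyp4b1 gave r = 0.55, 0.67 and 0.90, again larger on the slides of moderate replicate 2 and severe replicate 6. Cyp4a10 and Cyp4a14 gave 0.25, 0.55 and 0.43.

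**Figure D3:**
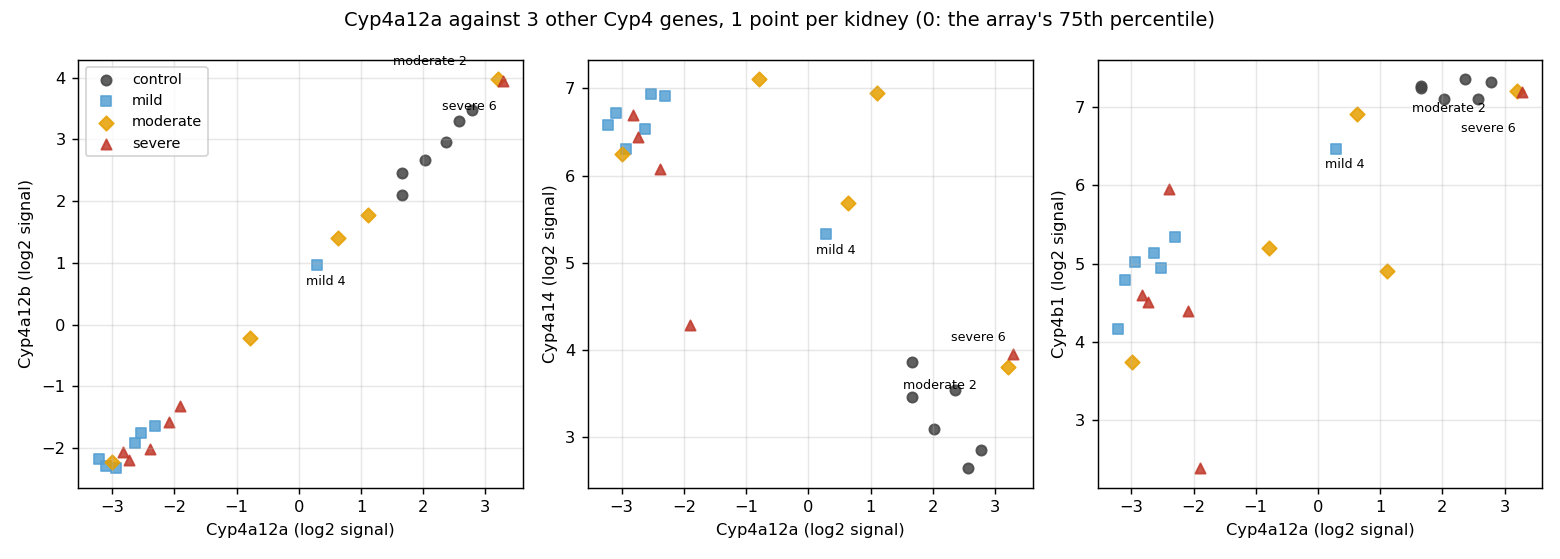
Log2 signal of Cyp4a12a (horizontal axes) against Cyp4a12b, Cyp4a14 and Cyp4b1 (vertical axes), 1 point per kidney, shaped by group. Moderate replicate 2 and severe replicate 6 lie beyond the control end of the Cyp4a12a axis, and the other 16 mgb-/- kidneys read between -3.22 and 1.11 there.

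Across all genes, those whose rank order over the mgb-/- kidneys was most like that of Cyp4a12a were Cyp4a12b (rho = 0.96), Dpagt1 (0.93), Actr1a (0.93), Cyp2d9, a male-biased P450 of mouse liver and kidney (0.90), and an unnamed probe (A_55_P1997061, 0.89). The most opposite were Btrc (-0.89), Caps2 (-0.89) and an unnamed transcript (AK018162, -0.89). For Cyp4a14, over 17 kidneys, they were Cyp2c23, the main arachidonic acid epoxygenase of mouse kidney, also called Cyp2c44 (0.97), Cdkl4 (0.95), Etnppl (0.93), Gm3219 (0.92) and Angptl4, a PPARα target (0.92). The most opposite were Dkk2 (-0.90), Stbd1 (-0.89) and Atat1 (-0.87). These are descriptions over kidneys that share slides, picked as extremes of 27684 and 27921 genes with a value in each of those kidneys. Cyp4a14 had a rho of 0.72 with Cyp4a31 and of -0.34 with Cyp4a12a.

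By position, 6 of the 8 genes lie in a single run of Cyp4 genes and pseudogenes on chromosome 4, in the order Cyp4a12a, Cyp4a12b, Cyp4a14, Cyp4a10, Cyp4a31 and Cyp4b1, so genes that fell and the gene that rose are neighbours. Cyp4b1-ps2, a transcribed pseudogene between Cyp4a31 and Cyp4b1, fell by 2.39 (SE 0.54, limma adjusted p = 0.00741). The genes flanking the run were not called, at -0.11 for Pdzk1ip1, -0.10 for Efcab14 and 0.01 for Tex38. Cyp4f15 and Cyp4f14 lie on chromosome 17 in that order, with several zinc finger genes between them. One of these, Zfp811, was called lower, at -1.01 (SE 0.32, limma adjusted p = 0.0383), while Zfp871, Zfp799 and Zfp870 were not, at -0.11, 0.06 and -0.05.

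The related lists below are read beside the shares of all genes called in mgb-/- kidneys, 1.83% higher and 1.26% lower. Of 16 other Cyp4 genes listed, 8 were tested and Cyp4b1-ps2 was the only one called in mgb-/- kidneys. It was also called in mild kidneys, at -2.52 (SE 0.65, limma adjusted p = 0.0254), and in severe kidneys, at -2.63 (SE 0.68, limma adjusted p = 0.0148). Signal of Cyp4b1 and of its pseudogene may not be separated by their probes. Cyp4a32, the copy closest to Cyp4a10 and Cyp4a31, had a log2 change of 0.39 (SE 0.24, limma adjusted p = 0.289).

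P450 enzymes need electrons, which Por delivers. Of 4 redox partners none was called by limma with the fold minimum, while 2 had an adjusted p under 0.05 and all 4 an unadjusted one (29% of all genes). Por changed by -0.71 (SE 0.17, limma adjusted p = 0.00900) and Cyb5r3 by -0.52 (SE 0.15, limma adjusted p = 0.0260), both short of 2-fold, and the median of the list was -0.51.

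The products of omega-hydroxylation are oxidised further to dicarboxylic acids and shortened in peroxisomes. Of 20 genes for these steps, 1 was called higher (background 1.83%) and 3 lower (background 1.26%), with a median of -0.37. Adh7, an alcohol dehydrogenase of epithelia, rose by 2.84 (SE 0.81, limma adjusted p = 0.0249). Its probe stood well above background on 3 of 6 control and 4 of 7 mild arrays, so the size of the rise is uncertain. Its means were -5.91, -4.58, -2.90 and -1.47 in control, mild, moderate and severe kidneys, the order in which the median urothelial marker sums also stood, and the part of the urothelium in it was not tested. Crot, which hands shortened acyl chains to carnitine, fell by 1.55 (SE 0.34, limma adjusted p = 0.00588), the alcohol dehydrogenase Adh1 fell by 1.39 (SE 0.36, limma adjusted p = 0.0149) and the thioesterase Acot12 fell by 1.37 (SE 0.38, limma adjusted p = 0.0206).

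PPARα targets other than Cyp4a genes did not go one way. Of 13 tested, 1 was called higher (background 1.83%) and 1 lower (background 1.26%), with a median of -0.28. The fatty acid transporter Cd36 fell by 2.37 (SE 0.49, limma adjusted p = 0.00436). Epoxygenases and epoxide hydrolases, which compete for the same arachidonic acid or clear its epoxides, had none of 16 called higher and 2 lower (background 1.26%), with a median of 0.06. Cyp2j13 fell by 3.16 (SE 0.77, limma adjusted p = 0.0108) and the soluble epoxide hydrolase Ephx2 fell by 1.32 (SE 0.30, limma adjusted p = 0.00772).

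Among 17 regulators, such as Ppara and Stat5b, none was called by limma with the fold minimum, and the median was 0.02. An unadjusted p under 0.05 was found for 6 of them (29% of all genes), and an adjusted one for 3. Ppara had a log2 change of -0.16 (SE 0.21, limma adjusted p = 0.648). In severe kidneys alone, 8 regulators had an unadjusted p under 0.05 (31.7% of all genes) and 3 an adjusted one, and none was called.

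**Figure D4:**
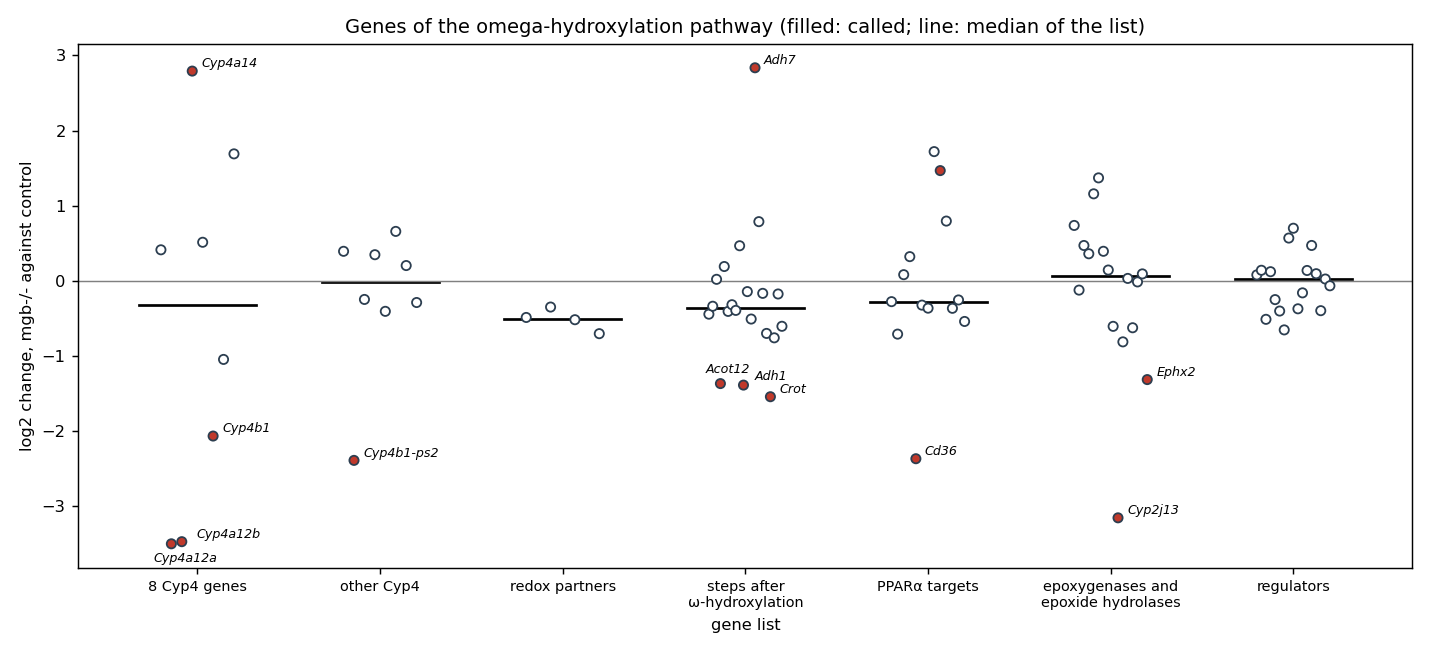
Log2 change in mgb-/- against control kidneys (vertical axis) of the 8 Cyp4 genes and of every tested gene of 6 related lists (horizontal axis), filled where called and named except for the higher PPARα target, with the list median as a line. Calls stand on both sides of 0 among the Cyp4 genes, the steps after omega-hydroxylation and the PPARα targets, and on the lower side alone among the other Cyp4 genes and the epoxygenases and epoxide hydrolases.

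Markers of the proximal tubule and of other cell types were examined beside the calls. Of 14 proximal tubule markers none was called by limma in mgb-/- kidneys, 4 had an unadjusted p under 0.05 (29% of all genes), and the median was -0.23. In severe kidneys 1 of the 14 was called, the glucose transporter Slc5a2, which fell by 1.16 (SE 0.34, limma adjusted p = 0.0270). There 7 of 14 had an unadjusted p under 0.05 (31.7% of all genes). Of 3 markers of the S3 segment, 2 were called lower, Slc7a13 by -2.81 (SE 0.76, limma adjusted p = 0.0186) and Slc22a7 by -2.28 (SE 0.52, limma adjusted p = 0.00751). The study's authors list Slc7a13 among male, sexually dimorphic transcripts that were lower in mgb-/- kidneys, as they do Cyp4a12a, Cyp4a12b and Cyp2j13. Slc7a13 is therefore not a sex-neutral marker of S3 cells. The part of sex-biased expression in the falls of these genes and of Slc22a7 was not tested. Slc7a13 ranged from 5.29 to 5.67 in control and from -0.83 to 5.53 in mgb-/- kidneys, and Slc22a7 from 6.64 to 6.87 and from 1.61 to 6.84. The other one, Kap, averaged 9.12 in the 6 control kidneys (SD 0.20) and likewise 9.12 in the 18 mgb-/- kidneys (SD 0.34), and it makes up most of the summed S3 signal in the plot of marker sums, which therefore says little about Slc7a13 and Slc22a7. None of 6 adipocyte, 7 leukocyte and 5 adrenal cortex markers was called by limma in mgb-/- kidneys or in a single grade, and over all mgb-/- kidneys none had an unadjusted p under 0.05. In mild kidneys, however, all 5 adrenal cortex markers had an unadjusted p under 0.05 (21.4% of all genes) with a median change of 3.49, and in moderate kidneys 2 of 5 did (18.4% of all genes) with a median of 2.95. Of 9 hepatocyte markers, 1 was called over all mgb-/- kidneys, Apob, a lipoprotein gene of the hepatocyte list, which fell by 1.41 (SE 0.45, limma adjusted p = 0.0408). In severe kidneys 1 of the 9 was called higher (background 2.98%) and 1 lower (background 1.73%), and in mild or moderate kidneys none was called. The part of these cell types in the Cyp4 results was not tested. Without the 2 kidneys rich in adrenal transcripts, 4, 4, 0 and 6 of the 8 Cyp4 genes were called in mgb-/-, mild, moderate and severe kidneys, against 2.93%, 2.67%, 0.0357% and 4.59% of all genes. The mild and moderate kidneys with lesser adrenal signal stayed in these fits.

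**Figure D5:**
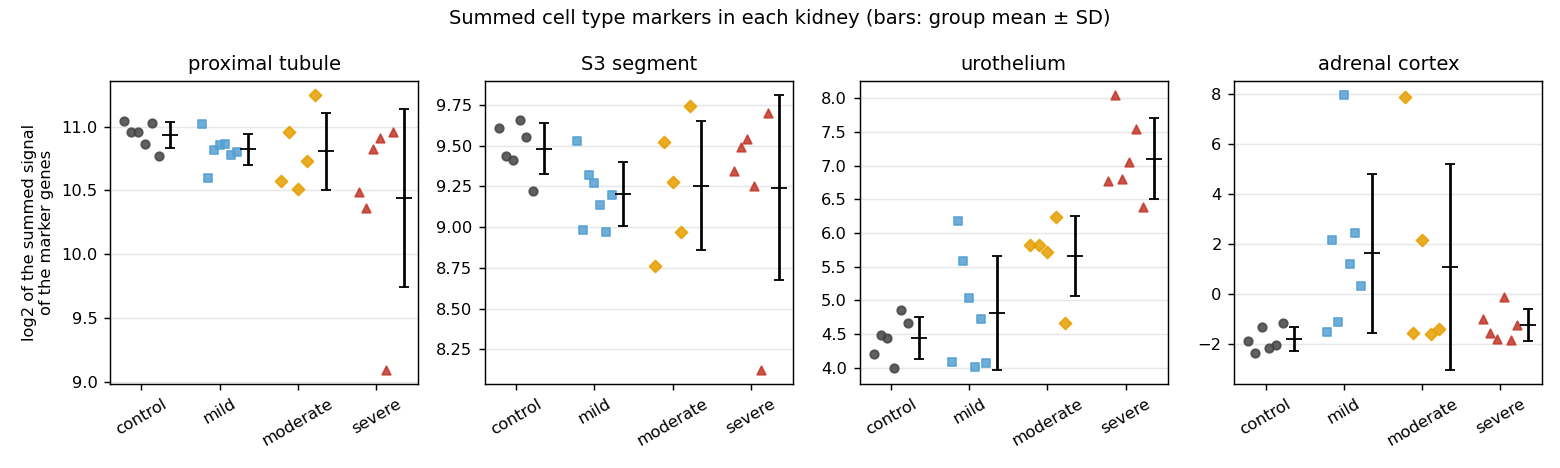
Log2 of the summed signal of marker genes for proximal tubule, S3 segment, urothelium and adrenal cortex (vertical axes) in every kidney by group, with the group mean and SD as a bar. Severe replicate 5 is low for proximal tubule (9.09), severe kidneys are all above controls for urothelium, and mild replicate 4 and moderate replicate 1 are high for adrenal cortex (7.96 and 7.88).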

How the data were processed

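Total RNA of 24 whole kidneys was hybridized to 1-colour Agilent arrays, and the authors deposited the scanner output of Agilent Feature Extraction 10.10. Its processed signal is an intensity with background subtracted and no normalization between arrays. The deposited median signal and median background are uncorrected intensities. A further deposited table holds the authors' intensities normalized between arrays by a method not given in the sources used here.

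Each array's 75th percentile, taken over its non-control spots, was subtracted from log2 of the processed signal. Outlier-marked spots were dropped. Of 55681 probes, the 38866 that were well above background on 5 arrays or more were kept. The files hold accessions and no gene names, and 26762 probes were named through RefSeq (GRCm38.p6). Of that table's coordinates only the order of genes along a chromosome was used, since the array headers name another build, and printed promoter positions are those of the RefSeq promoter windows. Of a gene's probes the one with the highest mean was used, which left 27985 genes, 325 of them with a missing value. No spot of a Cyp4 probe was saturated. Precision is limited by the number of arrays.

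limma 3.58.1 in R 4.3.3 was fitted to 2 groups for mgb-/- against control kidneys and to 4 groups for the grades. All arrays had 1 scan date. Correlations and figures were made in Python 3.11 with matplotlib 3.10.9. Only the limma fits to 2 and to 4 groups and the test of spread were tried on simulated data. Named genes are the 8 Cyp4 genes, other Cyp4 genes called against control, at most the 3 largest called rises and falls of a list, the 5 most and 3 least similar genes by rank for Cyp4a12a and Cyp4a14, and neighbours on the chromosome. Por, Cyb5r3, Ppara, Kap, Zfp811 and Cyp4a32 were named after their values were seen. Some listed genes are counted but not reported here by name. The members and lists were chosen with earlier results of these data known, and Cyp2c44 of the epoxygenase list was read under its current symbol Cyp2c23. Alternatives covered normalization, background, filters, probe choice, blocks, weights, thresholds and single kidneys.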

Additional observations from a re-analysis of the deposited data

Results flagged for a closer look

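In 8 of 32 groups of a Cyp4 gene and a grade, a single kidney stood apart from the rest by Dixon's criterion, where chance marks about 1 in 20. They came from 4 kidneys, and several of the genes are not independent of each other.

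Severe replicate 6 read 3.28 for Cyp4a12a, where the next severe kidney read -1.90, and 3.95 for Cyp4a12b, where the next read -1.32. Severe replicate 5 was low, at 4.42 for Cyp4a10 and 4.18 for Cyp4a31, where the next severe kidneys read 6.09 and 5.90. Its proximal tubule marker sum of 9.09 was also the lowest of all kidneys. The part of that in the low values was not tested.

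Mild replicate 4 read 0.29 for Cyp4a12a, 0.96 for Cyp4a12b and 5.33 for Cyp4a14, each nearer to the controls than the next mild kidney, at -2.30, -1.64 and 6.31. It is also the kidney with the highest adrenal cortex marker sum (7.96). Mild replicate 7 read 4.96 for Cyp4a10, where the next mild kidney read 6.18. Its second Cyp4a10 probe read 6.28.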

How the results depend on the processing

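Arrays were also quantile-normalized, scaled by the median or corrected with normexp (offset 50, on the median signal), and the authors' table was used in their place. Dim probes were kept, or removed unless detected on all 24 arrays, and the probes of a gene were averaged. Other fits had slide or replicate number as a block (replicate block), array quality weights, the mean of the 3 grades, or only the groups compared, and other thresholds were an adjusted p under 0.1 or no fold. Each kidney was left out in turn. Outlier spots kept, the omission of 2 kidneys with adrenal transcripts, and the 16 kidneys below the gap in Cyp4a12a were added after seeing the data. No called Cyp4 gene changed direction in these fits.

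The number of genes called stayed within 1.5 times for mgb-/- (4 or 5), mild (3 or 4) and severe kidneys (4 to 6), for the spread (0) and for the pairs (2 to 4). For moderate kidneys the count of 1 became 5 with array quality weights, and 0 with fits on the compared groups only, with the replicate block and without the adrenal-rich kidneys. It ranged from 0 to 1 with a kidney left out. Between grades the count of 0 became 1, Cyp4f15 in severe against mild kidneys, with normexp, the authors' table, array quality weights and an adjusted p under 0.1, and ranged from 0 to 1 with a kidney left out. Over kidneys left out the counts ranged from 4 to 5 for mgb-/-, 3 to 4 for mild and 5 to 6 for severe kidneys, and from 3 to 4 for the pairs.

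Deviations of same-numbered kidneys of different groups had a mean r of 0.053 (from -0.55 to 0.65 over 33 pairs). The mean r over 182 differently numbered pairs was -0.01. In control, mild and moderate kidneys the same number also meant the same slide, so number and slide cannot be told apart there. The main fits did not pair kidneys by number, and these values cannot tell whether some same-numbered kidneys share an animal. With the replicate block, the genes called over all mgb-/- kidneys kept their calls. Lost were the calls of Cyp4b1 in mild (limma adjusted p = 0.126), Cyp4a14 in moderate (0.0831) and Cyp4f14 in severe kidneys (0.0578).

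Of 38 alternatives, Cyp4f15 over all mgb-/- kidneys was called in 5 that include the mean of 3 grades (1.77), with changes from 1.12 to 1.89 in all of them. Cyp4f14 in severe kidneys lost its call in 9, among them the authors' table (-0.90) and normexp (-0.42). Cyp4a31 in severe kidneys, never called, changed sign with the mean of its probes (-0.05). Dim Cyp4f probes and the number of kidneys per grade limit these results.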
